A study of Rattus norvegicus with 4 samples.

Results

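The histone genes described here encode the proteins on which DNA is wound in the nucleus, and their transcripts were followed in INS-1, a rat insulinoma line that secretes insulin. Members were chosen by annotation, as probe sets whose deposited gene symbol or description names a histone and not an enzyme that modifies one. The group itself was taken up with the forskolin minus vehicle differences of these same arrays in view, so those differences are given as a description, with no test. The annotation rule found 52 of 29214 probe sets. After probe sets with identical signals on all arrays were collapsed, 50 of 29016 were left, under 33 deposited symbols and 32 current genes. By symbol or description, 28 of the 50 belonged to replication-dependent histone genes, 15 to replacement variants and 5 to germline histones, while 2 named no cluster. Hist1h2an and these 2 entered by description alone.

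INS-1 cells were given forskolin at 10 µM dissolved in DMSO, or the DMSO vehicle alone, and RNA was taken at 2 h or 16 h. A single Affymetrix rat gene ST array stood for each of the 4 groups (1 array a group), so no difference has a replicate check and no p-value is given. All cells came from 1 line, described in the labels as derived from NEDH rats, and were grown in RPMI with serum. Signals are on a log2 scale on which 1 unit is 2-fold. Where 4 signals are listed together, they are in the order 2 h vehicle, 2 h forskolin, 16 h vehicle and 16 h forskolin array. Forskolin activates adenylyl cyclase and thereby raises cyclic AMP.

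Replication-dependent histone genes lie in clusters, are transcribed mainly while DNA is being copied in S phase, and give mRNAs that end in a stem-loop instead of a poly(A) tail. Replacement variants are expressed throughout the cell cycle from genes outside these clusters, usually as polyadenylated mRNAs. Histones H2A, H2B, H3 and H4 form the core of the nucleosome, and the linker histone H1 binds the DNA between cores.

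In brief, the histone probe sets lay near their vehicle array at 2 h and below it at 16 h. The median forskolin minus vehicle difference was 0.08 log2 units at 2 h and -0.73 at 16 h, where 47 of the 50 were below 0. The same median over all 29016 probe sets was 0.02 at 2 h and 0.00 at 16 h. Against the 16 h vehicle array, the median at 16 h was -0.99 for the replication-dependent members and -0.50 for the replacement variants. Against the 2 h vehicle array the order turned over probe sets, with -0.49 for the replication-dependent members and -0.54 for the variants. With 1 probe set for each replication-dependent symbol the former was -0.72. The variants were not collapsed in that way, and 7 of their 15 probe sets carry the symbol H3f3b. The order over probe sets thus depends on how symbols with several probe sets are counted. At 16 h the 12 replication-dependent probe sets that were at least 2-fold lower came from H1, H2A, H2B and H4. These results lean on which vehicle array serves as the reference. Of the 50, 37 were also higher on the 16 h than on the 2 h vehicle array (median 0.17). Over all 29016 probe sets, 15035 were higher on the 16 h vehicle array, with a median of 0.01. Against the 16 h vehicle array, the median on the 2 h forskolin array was -0.13 over all 50 and -0.21 over the replication-dependent members, and the 2 h values thus turned in direction.

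The promoters of 4 members are shown first, because they stand for the patterns described below. Hist3h2ba, an H2B gene of the third histone cluster, had the largest difference at 16 h. Hist2h2ac, now named H2ac20, and Hist1h4b encode an H2A and an H4 histone and were above vehicle at 2 h and below it at 16 h. H1f0, a linker histone variant typical of cells that divide little, was lower at both times. Each window runs from 250 bases before to 50 bases after the RefSeq gene start in the rat assembly GRCr8, 5′ to 3′ on the gene's own strand. The windows lie at chr10:44225171-44225470 on the plus strand for Hist3h2ba, chr2:186469177-186469476 on the minus strand for H2ac20, chr17:47175996-47176295 on the plus strand for Hist1h4b and chr7:112473030-112473329 on the plus strand for H1f0. Capitals mark letters of the motifs searched on both strands, which were CCAAT, the TATA box TATAAA, the octamer ATTTGCAT known from H2B promoters, the cyclic AMP response element TGACGTCA, its shorter form TGACG, and the E2F motif as TTTCGCGC or TTTGGCGC.
Hist3h2ba: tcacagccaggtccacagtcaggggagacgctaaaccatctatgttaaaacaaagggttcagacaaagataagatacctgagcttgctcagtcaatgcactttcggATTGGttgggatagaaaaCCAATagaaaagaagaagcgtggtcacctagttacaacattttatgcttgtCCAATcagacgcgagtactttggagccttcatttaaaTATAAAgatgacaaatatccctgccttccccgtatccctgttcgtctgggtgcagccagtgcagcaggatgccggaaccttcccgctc
H2ac20: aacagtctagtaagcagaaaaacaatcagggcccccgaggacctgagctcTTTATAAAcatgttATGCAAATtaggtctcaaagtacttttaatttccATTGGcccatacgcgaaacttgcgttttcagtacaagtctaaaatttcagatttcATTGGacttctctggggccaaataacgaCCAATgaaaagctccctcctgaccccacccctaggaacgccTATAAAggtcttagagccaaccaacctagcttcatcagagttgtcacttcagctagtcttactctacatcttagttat
Hist1h4b: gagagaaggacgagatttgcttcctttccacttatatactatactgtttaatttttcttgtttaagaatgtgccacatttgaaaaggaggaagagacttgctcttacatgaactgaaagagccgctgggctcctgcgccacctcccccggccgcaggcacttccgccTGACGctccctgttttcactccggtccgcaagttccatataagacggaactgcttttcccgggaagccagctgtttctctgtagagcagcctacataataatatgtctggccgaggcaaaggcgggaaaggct
H1f0: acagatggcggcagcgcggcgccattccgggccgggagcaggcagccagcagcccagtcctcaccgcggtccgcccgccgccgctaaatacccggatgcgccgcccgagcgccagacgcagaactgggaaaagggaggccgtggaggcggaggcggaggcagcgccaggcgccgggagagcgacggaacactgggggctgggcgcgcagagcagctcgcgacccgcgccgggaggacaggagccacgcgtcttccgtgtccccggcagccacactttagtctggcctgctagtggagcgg

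The Hist3h2ba window held CCAAT 126 and 75 bases before the start, its reverse complement 144 bases before it, and TATAAA 38 bases before it. The H2ac20 window held CCAAT letters at 3 places, TATAAA 28 bases before the start, an overlapping TATA pair 200 and 198 bases before it and the octamer 186 bases before it. It overlaps the window of Hist2h2be, an H2B gene on the plus strand at chr2:186469202-186469501. These letters lie in both windows and cannot be assigned to either gene alone. Hist1h4b held only TGACG, 83 bases before the start, and H1f0 held none of the motifs.

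Of the 32 current histone genes, 31 had a window in the RefSeq table of 33469 promoters. CCAAT was present in 25 of the 31 windows (80.6%), against 37.5% of all promoters, and in 15 of the 16 replication-dependent windows (93.8%), where Hist1h4b was the one without it. The octamer was present in 10 histone windows (32.3%), against 1.78% of all promoters. The TATA box was present in 13 histone windows (41.9%), against 14.2% of all. The full cyclic AMP response element was in 0 of the 31 histone windows and in 1.83% of all promoters. Its short form, which the full element contains, was in 13 histone windows (41.9%) and in 21.2% of all. The E2F motif was in 2 histone windows (6.45%) and in 0.792% of all. A match is a run of letters and not a measured binding site, and 6 of the 31 histone windows overlap another histone window because those genes are transcribed away from each other from a shared stretch.

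Hist3h2ba had a signal of 10.16 on the 2 h vehicle array, 10.09 on the 2 h forskolin array, 10.37 on the 16 h vehicle array and 8.78 on the 16 h forskolin array. The 16 h forskolin array thus stood apart from the other arrays, 1.59 log2 units (3.01-fold) below its own vehicle. Of the 50 histone probe sets, 14 were at least 2-fold lower at 16 h and 0 at least 2-fold higher. Over all 29016 probe sets, 1.44% were at least 2-fold lower and 1.36% at least 2-fold higher at 16 h. At 1.5-fold, 29 of the 50 were lower and 0 higher, where 5.26% and 4.82% of all probe sets were. Since the group was taken up for this contrast, nothing is read from these shares. The threshold runs through a dense stretch: 14 histone probe sets had a 16 h difference from -1.1 to -0.9, and 9 of them lay just above -1. Set against the 2 h vehicle array instead, 6 of the 50 were at least 2-fold lower on the 16 h forskolin array, and the median was -0.49. Over all 29016 probe sets, 1.74% were at least 2-fold lower in that comparison and the median was 0.02. Set against the 16 h vehicle array, 0 of the 50 were at least 2-fold lower on the 2 h forskolin array, where 0.8% of all probe sets were.

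**Figure D1:**
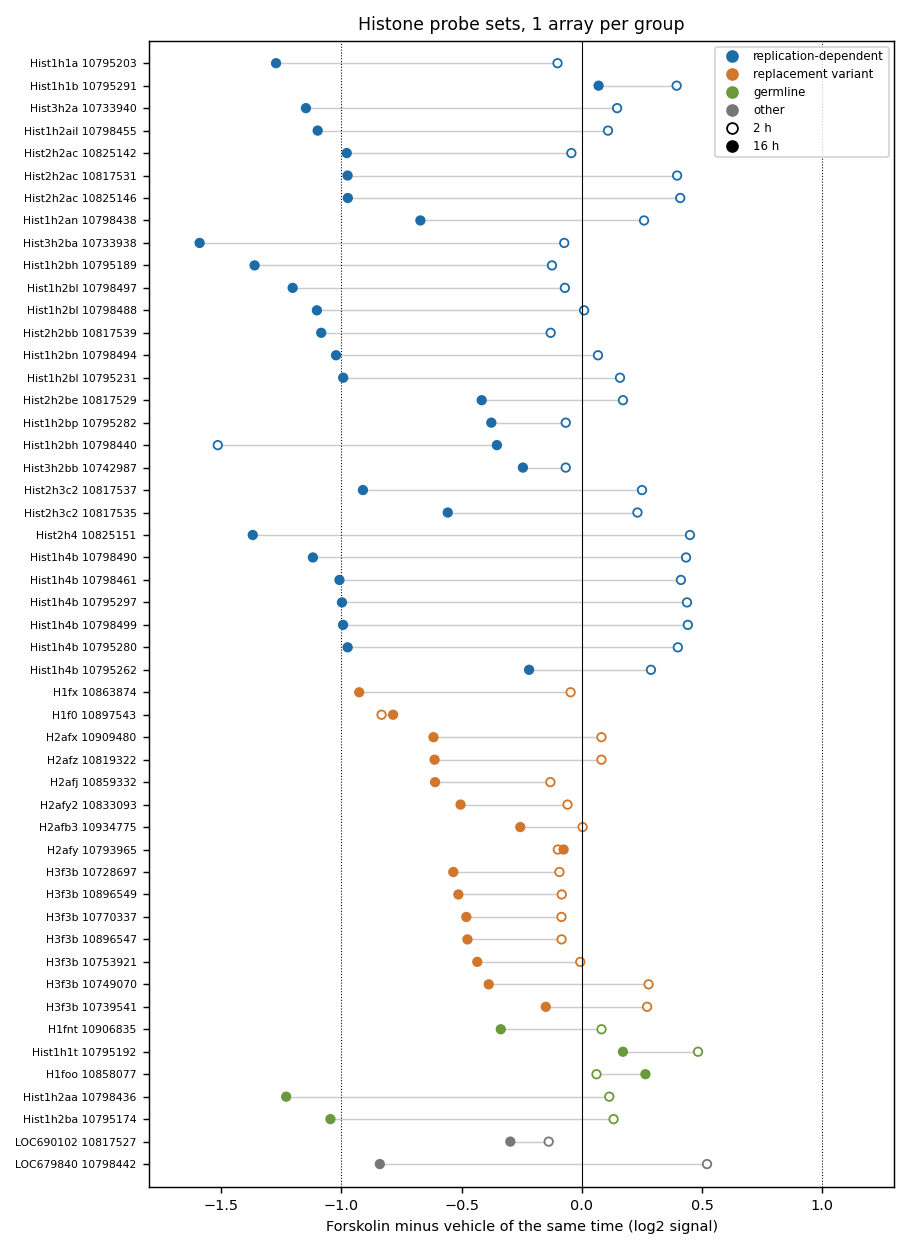
Forskolin minus vehicle difference of the same time (log2 signal, x axis) for each of the 50 histone probe sets (y axis, deposited symbol and probe set number), with open circles for 2 h and filled circles for 16 h. Dotted lines mark 2-fold in either direction. 14 filled circles lie beyond the left dotted line, 12 of them blue (replication-dependent) and the other 2 green (germline).

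The H2B genes, whose proteins pair with H2A in the nucleosome core, were near vehicle at 2 h and below it at 16 h. Their 11 replication-dependent probe sets had a median difference of -0.07 at 2 h and of -1.02 at 16 h, when all 11 were below 0 and 6 were at least 2-fold lower. Hist1h2bh had signals of 11.22 on the 2 h vehicle, 11.10 on the 2 h forskolin, 11.44 on the 16 h vehicle and 10.08 on the 16 h forskolin array. Only the last of these arrays was low, by 1.36 log2 units against its vehicle. Hist1h2bl, measured by 3 probe sets, had 16 h differences of -1.20, -1.10 and -0.99. The brightest of these read 10.95, 10.96, 11.11 and 10.01 in the same order of arrays, again low only on the 16 h forskolin array. Hist2h2bb differed by -1.08 at 16 h and by -0.13 at 2 h, and Hist1h2bn by -1.02 and 0.07. The remaining members had smaller differences at 16 h, of -0.42 for Hist2h2be, -0.38 for Hist1h2bp and -0.25 for Hist3h2bb, and their signals were dim, at most 5.22 on any array. The Hist1h2bl probe set with -0.99 was also dim, with 5.32, 5.48, 5.57 and 4.57. Against the 2 h vehicle array the H2B median on the 16 h forskolin array was -0.91, so the H2B probe sets were lower against either vehicle array.

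A second Hist1h2bh probe set was the only one of the 50 at least 2-fold lower at 2 h. It had signals of 4.95, 3.43, 3.56 and 3.21, high on the 2 h vehicle array alone, and its difference was -1.51 at 2 h and -0.35 at 16 h. The 1153 negative control probe sets had medians from 3.22 to 3.39 and upper quartiles from 4.37 to 4.57, so this probe set passed their upper quartile on 1 array. Between the vehicle arrays it differed by -1.39, the largest such difference of the 50. The brighter Hist1h2bh probe set differed by -0.12 at 2 h.

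The H4 genes, whose proteins pair with H3, were above vehicle at 2 h and below it at 16 h. All 7 H4 probe sets of the clusters were higher with forskolin at 2 h, by 0.29 to 0.45 log2 units, with a median of 0.43 (1.35-fold). All 7 were lower at 16 h, with a median of -0.998. Hist2h4 had signals of 9.72 on the 2 h vehicle, 10.17 on the 2 h forskolin, 10.37 on the 16 h vehicle and 9.002 on the 16 h forskolin array. It was thus lowest on the 16 h forskolin array and highest on the 16 h vehicle array, with a difference of 0.45 at 2 h and of -1.37 at 16 h. The probe set of Hist1h4b with the largest 16 h difference followed the same order, with 9.37, 9.80, 10.13 and 9.02, a difference of 0.43 at 2 h and of -1.12 at 16 h. Of the other Hist1h4b probe sets, 4 had 16 h differences from -1.01 to -0.97 and the dim one, with signals from 3.43 to 3.84, had -0.22. H4 copies are nearly identical in sequence, and 6 of the 7 probe sets carry 1 symbol, so these are not independent genes.

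The H4 vehicle arrays differed as well. All 7 H4 probe sets were higher on the 16 h than on the 2 h vehicle array, with a median difference of 0.73 log2 units and a highest of 0.82 for a Hist1h4b probe set. That median was larger than the 2 h forskolin median. Against the 2 h vehicle array, the H4 median on the 16 h forskolin array was -0.27, and 0 of 7 were 2-fold lower. Against the 16 h vehicle array, the H4 median on the 2 h forskolin array was -0.29, with all 7 below 0. The higher H4 signal at 2 h therefore held against the 2 h vehicle array and turned in direction against the other. A further probe set described as histone H4, LOC679840, had the highest positive 2 h difference of the 50, with signals of 8.01, 8.53, 8.86 and 8.02, a difference of 0.52 at 2 h and of -0.84 at 16 h, and with 0.85 the largest positive difference between the vehicle arrays. Its 16 h forskolin signal was within 0.01 log2 units of its 2 h vehicle signal.

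The H2A genes, whose proteins pair with H2B, had a 2 h median between those of the H2B and H4 families. Their 6 replication-dependent probe sets had a median difference of 0.20 at 2 h and of -0.98 at 16 h, with all 6 below 0 at 16 h. Hist2h2ac read 10.56, 10.96, 11.22 and 10.24 on the arrays in the same order, with a difference of 0.40 at 2 h and of -0.97 at 16 h. A second bright Hist2h2ac probe set gave 0.41 and -0.97, and the third, at the level of the negative controls, gave -0.04 and -0.98. Hist1h2ail read 10.71, 10.82, 10.99 and 9.89, with a 16 h difference of -1.10. Hist3h2a was dim, with 4.56, 4.71, 4.85 and 3.70, and its 16 h difference was -1.15. Hist1h2an, whose probe set the deposited annotation marks as open to cross-hybridisation, had a 16 h difference of -0.67.

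The vehicle arrays also parted the H2A members. Hist2h2ac was 0.65 log2 units higher on the 16 h than on the 2 h vehicle array, and Hist1h2ail 0.28. Against the 2 h vehicle array, the 16 h forskolin difference was -0.32 for Hist2h2ac and -0.82 for Hist1h2ail.

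The H3 and H1 genes of the clusters were covered by few probe sets. Hist2h3c2, the one H3 gene, was measured by 2 of them with different signals. The brighter read 11.05, 11.30, 11.52 and 10.61, with a difference of 0.25 at 2 h and of -0.91 at 16 h, and the other differed by 0.23 and -0.56. Both were highest on the 16 h vehicle and lowest on the 16 h forskolin array. Hist1h1a, a linker histone, was the brightest probe set of the clusters with 12.01, 11.91, 12.14 and 10.87, and it differed by -0.10 at 2 h and by -1.27 at 16 h (2.42-fold). Hist1h1b, the other H1 of the clusters, lay at the level of the negative controls on all arrays, from 1.96 to 2.40, and differed by 0.39 at 2 h and by 0.07 at 16 h.

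**Figure D2:**
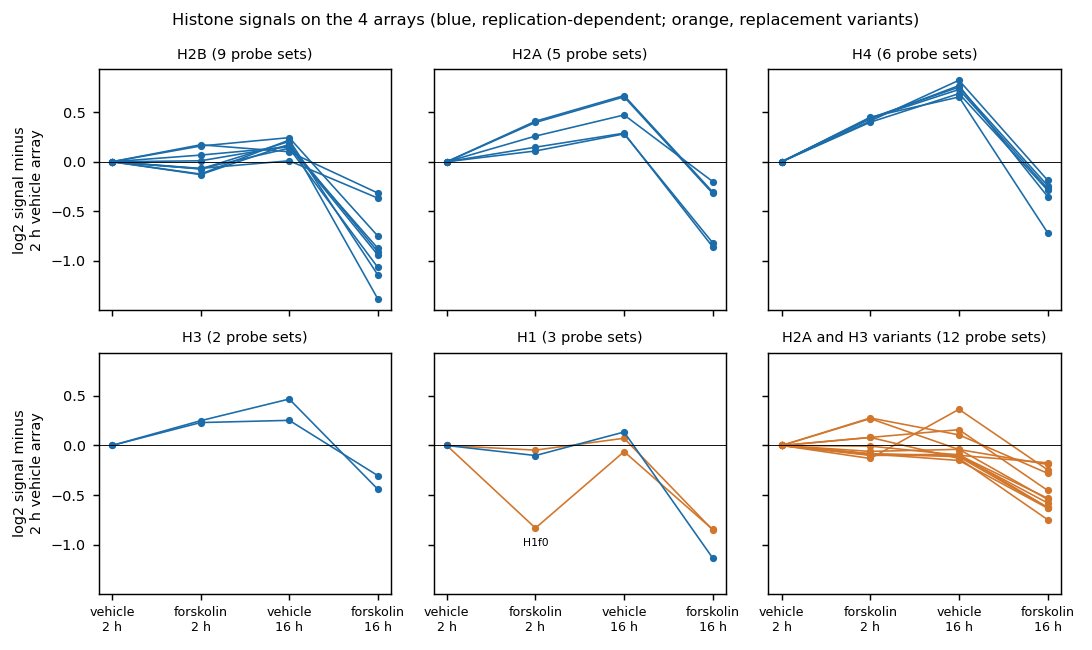
Signal on each of the 4 arrays minus the signal on the 2 h vehicle array (log2, y axis) for histone probe sets whose mean signal reached the median over all probe sets, 3.956, split by family. Germline probe sets and those that named no cluster are not drawn. Each line is 1 probe set. H4 lines are above 0 on the 2 h forskolin and the 16 h vehicle array, H2B lines stay near 0 until the 16 h forskolin array, and H1f0 is the orange line that is low on both forskolin arrays.

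Taken by genomic cluster, the median 16 h difference was -0.998 over 17 probe sets of the first histone cluster, -0.97 over 8 of the second and -1.15 over 3 of the third. With 1 probe set for each of the 17 replication-dependent symbols, the median was -1.02. Of the 28 replication-dependent probe sets, 26 were lowest on the 16 h forskolin array and 23 highest on the 16 h vehicle array. Over all 29016 probe sets, 25.5% were lowest on the 16 h forskolin array and 23.5% highest on the 16 h vehicle array.

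The replacement variants, which are built into chromatin outside S phase, were also lower at 16 h. All 15 probe sets were below vehicle at 16 h, with a median of -0.50, 5 of them by at least 1.5-fold and 0 by at least 2-fold. At 2 h their median was -0.06, with 5 above and 10 below 0. Their vehicle arrays differed little, by a median of -0.06. Against the 2 h vehicle array the median on the 16 h forskolin array was -0.54, beside -0.49 for the replication-dependent probe sets. With 1 probe set for each replication-dependent symbol the latter was -0.72, while the variant median still counted 7 probe sets of H3f3b. All 15 variant probe sets were lowest on the 16 h forskolin array, and 4 of them were highest on the 16 h vehicle array.

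H1f0 was the variant with the largest 2 h difference. Its signals were 7.71 on the 2 h vehicle, 6.87 on the 2 h forskolin, 7.65 on the 16 h vehicle and 6.86 on the 16 h forskolin array. Both forskolin arrays were low and both vehicle arrays high, without overlap, and the difference was -0.83 at 2 h (1.78-fold) and -0.79 at 16 h (1.72-fold). At 2 h, H1f0 and the dim Hist1h2bh probe set were the 2 of the 50 at least 1.5-fold lower and 0 were higher, where 4.82% of all probe sets were lower and 4.55% higher. At 2-fold, 1 of the 50 was lower and 0 higher at 2 h, where 0.837% and 1.32% of all probe sets were. H1fx, the other linker variant, read 6.98, 6.94, 7.06 and 6.13, with a difference of -0.05 at 2 h and of -0.93 at 16 h, the largest among the variants.

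The H2A variants differed in how far they lay below vehicle at 16 h. H2afz, the variant H2A.Z found at gene starts, read 11.05, 11.13, 11.21 and 10.60 and differed by 0.08 at 2 h and by -0.61 at 16 h. H2afx, the variant that is phosphorylated at DNA breaks, read 7.53, 7.62, 7.40 and 6.79 and differed by 0.08 and -0.62. H2afj read 6.91, 6.78, 7.27 and 6.66 and differed by -0.13 and -0.61. All of them were lowest on the 16 h forskolin array, although H2afj stood only 0.25 below its 2 h vehicle signal there. H2afy, which encodes macroH2A, a large variant typical of silent chromatin, read 10.25, 10.15, 10.15 and 10.07 and differed by -0.10 and -0.08, the smallest 16 h difference of the variants. H2afy2, the second macroH2A gene, differed by -0.06 and -0.50. H2afb3 was dim, with signals from 3.59 to 3.85 and differences of 0.00 and -0.26.

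H3f3b, which encodes the replacement histone H3.3, was covered by 7 probe sets with different signals. The 2 that carry a RefSeq transcript differed by 0.27 and 0.28 at 2 h and by -0.15 and -0.39 at 16 h. The brighter of them read 11.79, 12.07, 11.75 and 11.60, highest on the 2 h forskolin array. The 5 that carry an Ensembl transcript differed by -0.09 to -0.01 at 2 h and by -0.53 to -0.44 at 16 h. The probe sets of this symbol thus parted at 2 h into a pair above vehicle and 5 below it. Cenpa, the centromeric H3 variant, which the annotation rule does not include, read 4.81, 4.60, 5.38 and 4.94 and differed by -0.21 at 2 h and by -0.44 at 16 h.

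The germline histones, which are made mainly in testis or egg cells, were dim. Hist1h2aa read 4.64, 4.76, 5.28 and 4.05 and Hist1h2ba 4.75, 4.88, 5.07 and 4.03, with 16 h differences of -1.23 and -1.05. On the 16 h forskolin array both were short of the negative controls' upper quartile, which they passed on the other arrays. Hist1h1t, H1foo and H1fnt stayed under that quartile throughout, with 16 h differences of 0.17, 0.26 and -0.34, and Hist1h1t differed by 0.48 at 2 h. Together with Hist1h1b, Hist1h1t and H1foo were the 3 histone probe sets above 0 at 16 h. LOC690102, now H2ac21, is not a germline histone. It entered by its description, which names no cluster, and was not counted among the replication-dependent H2A probe sets. Its promoter window, chr2:186467974-186468273, lies near that of H2ac20. The probe set differed by -0.14 at 2 h and by -0.30 at 16 h. Against the 2 h vehicle array its 16 h forskolin signal was 0.10 higher.

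Of the 50 probe sets, 41 had a mean signal at or above 3.956, the median over all probe sets. A probe set could pass through the vehicle arrays alone, so the counts above are over all 50. Among all 14509 probe sets with such a mean, 2.2% were at least 2-fold lower and 1.94% higher at 16 h, and 7.23% and 6.63% at 1.5-fold. At 2 h those shares were 1.25% lower and 1.87% higher at 2-fold, and 7.62% and 5.13% at 1.5-fold. Beyond the annotation rule, 19 further probe sets carried a histone description in another wording, such as a histone family member. At 16 h their median difference was -0.32, with 15 below 0 and 5 at least 2-fold lower. Only 9 of the 19 had a mean signal at or above 3.956, and the median of those 9 was -1.07. The probe set of RGD1564767, described as a histone H2a, read 8.30, 8.61, 9.15 and 7.70, with -1.44 at 16 h the lowest of them, and it too was highest on the 16 h vehicle array. Both probe sets described as H2afv, the second H2A.Z gene, differed by -1.13 and -1.16 at 16 h and by -0.23 and -0.42 at 2 h. RGD1564767 and H2afv were picked for mention with their values in view.

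**Figure D3:**
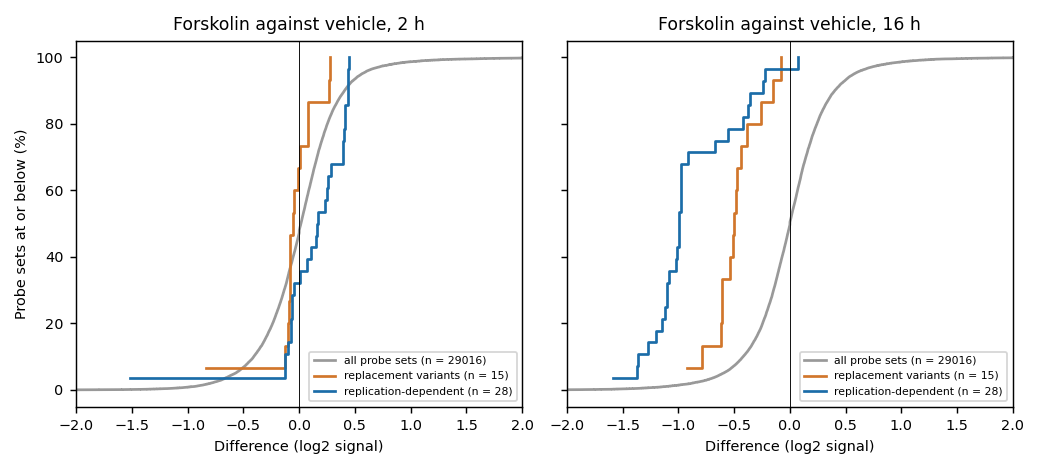
Share of probe sets (%, y axis) at or below each forskolin minus vehicle difference (log2 signal, x axis, drawn from -2 to 2) at 2 h (left) and 16 h (right), for all 29016 probe sets, the 28 replication-dependent and the 15 replacement variant probe sets. At 16 h the blue line crosses 50% near -0.99 and the orange line near -0.50, while the grey line crosses at 0.00.

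Genes that act around histone production were described next. S phase genes are those that license, fire or extend DNA replication, and 33 of the 35 listed were measured. At 16 h their median difference was -0.52, with 30 below 0, 13 at least 1.5-fold lower and 1 at least 2-fold lower. All 33 had a mean signal at or above the median over all probe sets. Among the 14509 probe sets with such a mean, 7.23% were at least 1.5-fold lower and 2.2% at least 2-fold lower at 16 h. At 2 h the median difference of the S phase genes was -0.15, with 28 below 0. Over the same 14509 probe sets the median was -0.06 at 2 h, with 8416 below 0. At 16 h it was 0.00, with 7223 below 0. E2f8, a cell-cycle transcription factor, read 6.98, 6.36, 6.70 and 5.67, lowest on the 16 h forskolin array, with -0.62 at 2 h and -1.03 at 16 h. Pola1, a subunit of the polymerase that starts DNA strands, differed by -0.96 at 16 h, while Cdt1, which loads the replicative helicase, differed by 0.18 and Gins2, a part of that helicase, by 0.17. Ccne1, the cyclin that drives entry into S phase, was the lowest at 2 h, with 8.15, 7.07, 7.91 and 7.43 and a difference of -1.08 at 2 h and of -0.48 at 16 h, and Uhrf1, which keeps DNA methylation through replication, differed by -0.70 at 2 h. Rfc3 and Pcna, which load and form the polymerase clamp, were the highest at 2 h with 0.22 each. The median between the vehicle arrays was -0.01 for the S phase genes and 0.27 for the replication-dependent histone probe sets.

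These arrays read RNA from whole cultures, so fewer cells in S phase and less histone mRNA per cell cannot be told apart. The part of the S phase genes in the histone differences was not tested.

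For factors of histone gene transcription and mRNA processing, 13 of 24 listed names matched a probe set, with a median of -0.18 at 2 h and of 0.04 at 16 h. Of these, 0 were at least 1.5-fold higher or lower at 16 h. Among the 14509 probe sets with a mean signal at or above 3.956, 6.63% were higher and 7.23% lower at that threshold. A count of 0 among 13 therefore says little. The 2 h median of those 14509 was -0.06. Slbp and Hinfp were among the names without a match, so the medians of this list do not cover them. Eri1, an exonuclease that trims histone mRNA, was the lowest at both times, with -0.74 and -0.55. Cpsf2, of the machinery that cuts the histone mRNA end, differed by -0.47 at 2 h, and Ncbp1, which binds the mRNA cap, by -0.37 at 16 h. Yy1, a transcription factor, differed by 0.21 at 2 h and the dim Zfp473, a zinc finger protein, by 0.40. At 16 h Cpsf3, the nuclease of the cutting machinery, and Sympk, its scaffold, were the highest, with 0.24 and 0.23.

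Histone chaperones, which carry histones to DNA, had medians of -0.17 at 2 h and of -0.18 at 16 h over 30 of 31 listed genes. Nap1l5, of the nucleosome assembly protein family, read 6.23, 8.20, 6.42 and 6.25, high on the 2 h forskolin array alone, with a difference of 1.98 at 2 h (3.93-fold). It was the only measured chaperone past 2-fold at either time. Among the 14509 probe sets with a mean signal at or above 3.956, 1.87% were at least 2-fold higher and 1.25% lower at 2 h. At 16 h these shares were 1.94% and 2.2%. The medians of those 14509 were -0.06 at 2 h and 0.00 at 16 h. Asf1b, which hands over new H3 and H4, differed by -0.54 at both times. Tonsl, which reads new H4, differed by -0.51 at 2 h and by -0.63 at 16 h, and Nasp, which stores H3 and H4, by -0.60 at 16 h. Ubn1, of the H3.3 deposition complex, differed by 0.31 at both times and Ipo4, an importer of histones, by 0.45 at 16 h.

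Enzymes that add or remove histone acetyl groups had medians of -0.25 at 2 h and of -0.24 at 16 h over 20 of 21 listed genes. At either time 0 passed 2-fold. Among the 14509 probe sets with a mean signal at or above 3.956, 1.25% were at least 2-fold lower and 1.87% higher at 2 h. At 16 h these shares were 2.2% and 1.94%. The medians of those 14509 were -0.06 at 2 h and 0.00 at 16 h. Among the deacetylases, Hdac8 differed by -0.63 and Hdac5 by -0.45 at 16 h, Hdac7 by -0.53 at 2 h and by 0.13 at 16 h, Hdac3 by 0.10 at 16 h, and Hdac4 and Hdac5 by 0.08 and 0.06 at 2 h. The acetyltransferase Kat2b differed by -0.45 at 2 h.

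**Figure D4:**
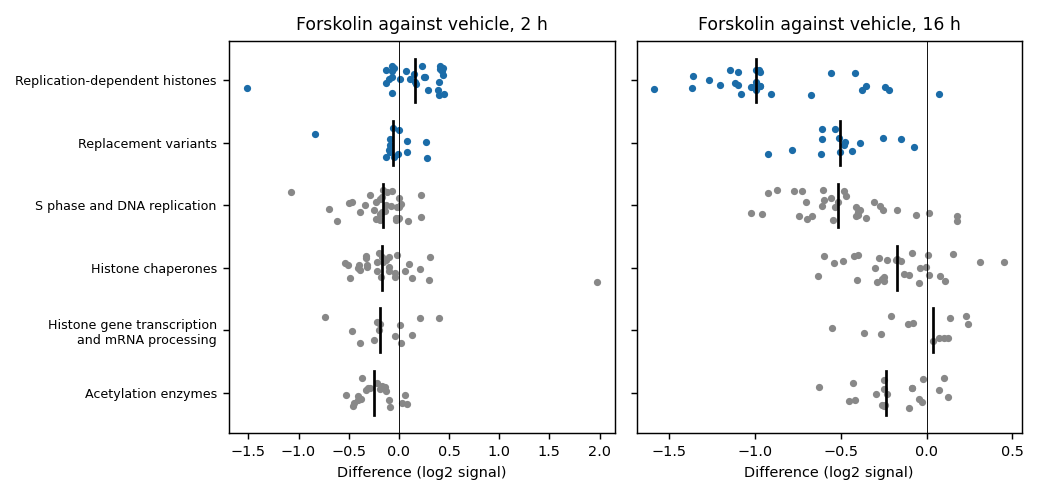
Forskolin minus vehicle difference (log2 signal, x axis) at 2 h (left) and 16 h (right), with 1 point per histone probe set (blue) or measured gene of a list (grey), spread vertically at random, and a black bar at each median. At 16 h the bars lie near -0.99 for replication-dependent histones, -0.50 for replacement variants, -0.52 for S phase genes and 0.04 for histone gene transcription and mRNA processing.

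The identity of the cells was checked against markers. All 10 measured beta-cell markers had a mean signal above 3.956, led by Ins1 with 13.23 to 13.32. Some of them differed with forskolin: Neurod1 by -1.16 at 2 h and -1.58 at 16 h, and Mafa by 1.31 and -0.52. Nkx6-1 differed by -1.59 and -0.83 and read 3.84 on the 2 h forskolin array, below that value. These are transcription factors of beta cells, and their part in the histone differences was not tested. Of 10 markers of other cell types, 8 had a mean below that value. The exceptions were Gcg, the glucagon gene, with 11.76, 12.00, 11.95 and 12.56, and Col1a1, with 4.31 to 4.77. Pearson correlations between arrays over all probe sets ran from 0.9855 to 0.9926 for the 6 pairs of arrays.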

How the data were processed

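RNA from 4 INS-1 samples was measured on 1 array each. The deposited log2 signals were computed by the authors at gene level with Affymetrix Expression Console 1.1.1, per the submitters' processing notes, and with RMA per the file headers. RMA gives all arrays the same distribution of probe signals, so a shift common to all genes would not show. The deposited descriptions carry coordinates of build RGSC3.4, which are not printed. Tables were joined by probe set number, and log2 signals differed by at most 5e-05 between them. Arrays have no read depth, and their number limits the precision.

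Differences are log2 forskolin minus log2 vehicle of the same time, computed in Python 3.11.15, and probe sets were counted past 2-fold or 1.5-fold, with no test. The counting was checked on simulated data. Members and gene lists were chosen with earlier results of these data known. Genes named are the 6 largest and 6 smallest histone differences at each time, the 2 brightest probe sets of each family, all replacement variants and Cenpa, the 3 largest vehicle differences, and the 2 largest and 2 smallest of each of 4 gene lists at each time. Further genes are named to complete a family or a count. Current names and promoters come from RefSeq (GRCr8); accessions matched 37 histone probe sets, symbols 6 and older synonyms 6. Alternatives were other thresholds, filters on signal, collapsing, normalization (cyclic loess and quantile, limma 3.58.1 in R 4.3.3) and the other vehicle array.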

Additional observations from a re-analysis of the deposited data

Results flagged for a closer look

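Median forskolin differences had opposite signs at 2 h and 16 h in several histone groups, and the gap between the times was not tested, since each group had 1 array. The median at 16 h minus the median at 2 h was -1.16 log2 units for the 28 replication-dependent probe sets. By family it was -1.43 for H4, -1.18 for H2A, -0.97 for H3 and -0.75 for H1. The H1 value rests on 2 probe sets, of which Hist1h1b lay at the level of the negative controls. Against the vehicle array of the other time, the 2 h median of the replication-dependent probe sets was -0.21, on the same side of 0 as at 16 h.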

How the results depend on the processing

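Of 113 values recomputed under the alternatives, 99 stayed close to the value reported, 12 moved and 2 turned in direction. The choice of vehicle array, added after the data were seen, turned both: the 2 h median became -0.13 over all histone probe sets and -0.21 over replication-dependent ones. It also left 0 probe sets 2-fold lower at 2 h and 6 at 16 h, with 16 h medians of -0.49 over all and -0.49 over replication-dependent probe sets. At 1.5-fold, 2 were lower at 2 h and 29 at 16 h. Keeping probe sets by mean signal left 0 lower at 2 h and a 16 h median of -0.93, and keeping them by highest signal gave -0.92. With 1 probe set per symbol, 0 were lower at 2 h and the variant median at 16 h was -0.61. Adding the 19 other histone-described probe sets, chosen after the data were seen, gave -0.61 at 16 h. Only 9 of these 19 had a mean signal at or above 3.956. Cyclic loess and further quantile normalization each left 16 probe sets 2-fold lower at 16 h. No paired analysis was possible because each group has 1 array and no result comes from a test. Near-identical histone copies can share probes, so probe sets of a family are not independent, and those near the negative controls have little signal to show a difference.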
